A study of Mus musculus with 2 samples.

Results

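Chemokines are small secreted proteins that guide leukocytes along concentration gradients by binding seven-helix receptors on the cells they attract. Activated T cells release several of them, among them the inflammatory ligands CCL3, CCL4 and CCL5, the dendritic cell attractant XCL1 and CCL1, and interferon-γ induces CXCL9 and CXCL10 in many cell types. CCL17 and CCL22 are mostly known as products of dendritic cells and macrophages that attract CCR4-bearing T cells, although activated T cells can make CCL22 too. The 10 genes described here are Ccl1, Ccl3, Ccl4, Ccl5, Ccl9, Ccl17, Ccl22, Xcl1, Cxcl9 and Cxcl10, chosen by the gene symbol in the platform annotation out of 20738 genes with a named probe. They are read by 12 probes, of which Cxcl9 and Cxcl10 have 2 each and the other 8 genes 1 each.

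The 2 cultures carry the labels Gfi1 knock out and Gfi1 wild type; Gfi1 encodes a zinc-finger repressor of transcription. Both came from C57BL/6 mice, started from naive CD4 T cells of the spleen and received the same treatment for 2 days: an antibody to the T cell receptor β chain at 3 µg/ml and one to CD28 at 1 µg/ml, the growth cytokine IL-2 at 10 ng/ml, and neutralising antibodies to IL-4 and IFN-γ at 5 µg/ml each. The kind of knockout allele, the age of the mice and whether animals were pooled are not given in the sources used here. RNA of each culture was hybridised to 1 array with 1 dye, which leaves the spread between cultures unmeasured and allows no test. Values are spot signals in array units, and log2 differences of the knockout label over the wild-type label after each array was scaled to its 75th percentile (269 and 263 units).

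The targeted gene does not settle the labels. The Gfi1 probe read 18100 units in the knockout-labelled library and 4260 units in the wild-type-labelled library, a log2 difference of 2.05, and where that probe lies relative to the deleted part is not known here. The single Gfi1 spot has a feature number above 50000, a range taken up below with Ccl4. Sex-linked transcripts differed as well: Xist read 3.86 units in the knockout-labelled library and 447 units in the wild-type-labelled library, and the Y-linked Eif2s3y read 3870 and 2.91 units in the same order. Read by these transcripts, the 2 libraries differed in sex. Genotype label, sex and the Gfi1 reading cannot be told apart in any difference below, and every direction rests on the labels. Detection was set at the median probe signal of each array (14.6 units for the knockout label, 14.2 units for the wild-type label); where a gene lay under this floor on 1 array, the floor stands in for it and the fold is a lower bound. The spread over 10 spots of the same probe gave a median SD of the log2 difference of 0.35 at 15 to 50 units (32 probes), 0.11 at 50 to 500 units (63 probes) and 0.05 at 500 to 5000 units (103 probes), which covers variation within the arrays only.

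Of the 10 chemokine genes, Ccl3, Ccl4 and Cxcl10 exceeded 2-fold in favour of the knockout-labelled library, Ccl1 exceeded 2-fold the other way, and the remaining 6 were above 0. Of these, Ccl5, Ccl9, Ccl17 and Xcl1 measured less than 2-fold, while Ccl22 and Cxcl9 have only lower bounds, which do not place them below 2-fold. With a floor at the 25th percentile both passed 2-fold and 5 members were higher, against 5.51% of all genes in that setting. Among all 13411 detected genes, 3.62% were higher by 2-fold or more and 1.52% lower by 2-fold or more. At a limit of 1.5-fold, 6 of the 10 chemokine genes were higher, against 7.67% of all detected genes. The median difference of the 10 genes was 0.62, beside -0.05 over all detected genes. As the genes were proposed with results of these arrays known, the counts are a description of these libraries. In whole-culture RNA, more cells making a chemokine and more of its RNA per cell cannot be told apart.

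**Figure D1:**
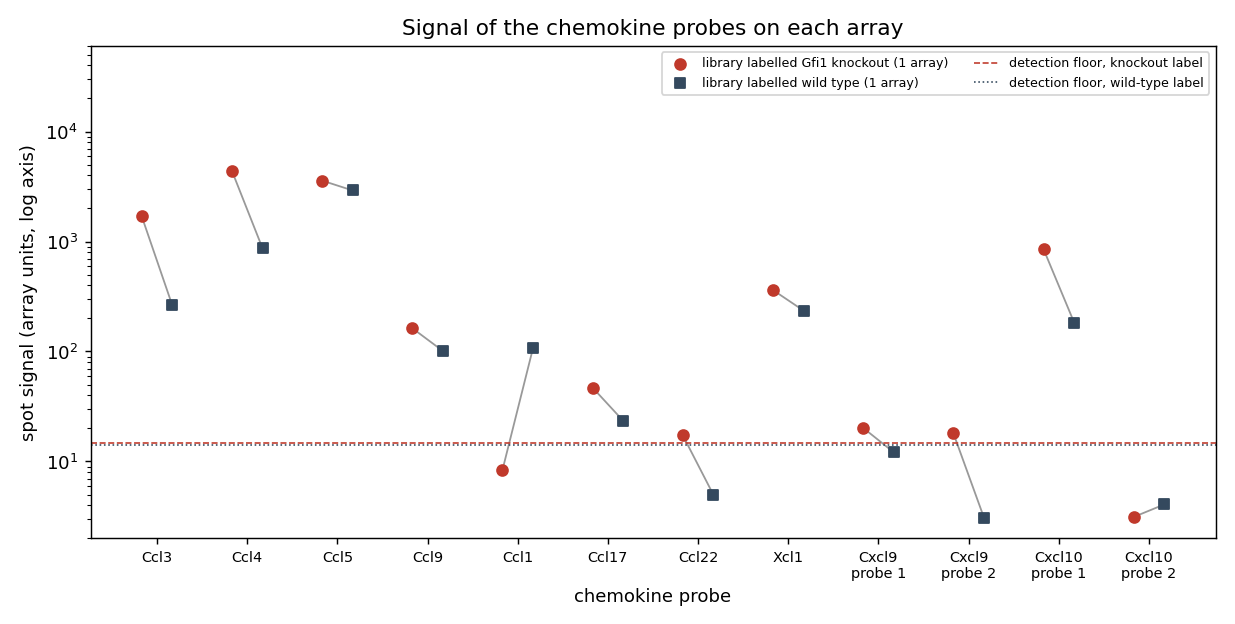
Spot signal (array units, log axis) of the 12 chemokine probes, with the library labelled Gfi1 knockout (red circles) left of the wild-type-labelled library (blue squares), 1 array each; the dashed and dotted lines are the detection floors of 14.6 and 14.2 units. The Ccl1 pair slopes up to the wild-type label (8.33 against 108 units), while the Ccl3, Ccl4 and Cxcl10 probe 1 pairs slope steeply down.

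The inflammatory CC ligands Ccl3 and Ccl4 showed the largest positive differences of the group. Ccl3, which encodes MIP-1α, a ligand of CCR1, read 1700 units in the knockout-labelled library and 262 units in the wild-type-labelled library. This is a 6.34-fold difference (log2 2.67), which puts Ccl3 at rank 54 of the 13411 detected genes counted from the most positive. Ccl4, which encodes MIP-1β, an attractant of T cells and monocytes, read 4400 units in the knockout-labelled library and 868 units in the wild-type-labelled library, a 4.96-fold difference (log2 2.31, rank 89). Both differences were far wider than the spread between spots of one probe at such signals. The single Ccl4 spot has a feature number above 50000, a range in which dim spots differed by 2-fold more often (25.3% of 4297 spots at 15 to 500 units, against 9.29% of 13818 spots with lower numbers). Among spots of 500 units or more, to which Ccl4 belongs, these shares were 2.45% above 50000 and 1.91% below.

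Ccl5, which encodes RANTES, a ligand of CCR1 and CCR3, differed far less than its relatives. It read 3580 units in the knockout-labelled library and 2910 units in the wild-type-labelled library, a 1.20-fold difference (log2 0.27). Of all detected genes, 16.8% had a more positive difference than Ccl5. Klf13, which encodes a factor known to act on the CCL5 promoter in human T cells, stood at -0.07 ± 0.08 (SD over 2 probes). Ccl9, a CCR1 ligand of mice that is best known from myeloid cells, read 163 units in the knockout-labelled library and 101 units in the wild-type-labelled library (log2 0.66). Xcl1, which encodes lymphotactin, the ligand of XCR1 on cross-presenting dendritic cells, read 362 units in the knockout-labelled library and 235 units in the wild-type-labelled library (log2 0.59). Ccl9 and Xcl1 both measured less than 2-fold. Replicate spots of 50 to 500 units had a median SD of 0.11 and a highest SD of 0.71, which is above both differences.

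Ccl1 was the 1 member lower in the library labelled knockout. It encodes TCA-3, a ligand of CCR8 first known as a product of activated T cells. Its only probe gave 8.33 units in the knockout-labelled library, below the floor, and 108 units in the wild-type-labelled library. Ccl1 was thus at least 7.57-fold lower (log2 difference at the floor -2.92). Counted from the most negative difference, Ccl1 had rank 16 of 13411, in a list where genes under the floor enter with their bounds. Replicate spots at this geometric mean signal (30.0 units) had a median SD of 0.35 and a highest SD of 0.72. The spot has feature number 37917 and so lies outside the range with frequent differences.

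Ccl17 and Ccl22, the ligands of CCR4, were dim. Ccl17 read 46.9 units in the knockout-labelled library and 23.4 units in the wild-type-labelled library, a 1.96-fold difference (log2 0.97), just under the 2-fold limit and, at 1.04 with cyclic loess or 1.00 without scaling, just over it. Ccl22 read 17.3 units in the knockout-labelled library, little over the floor, and 4.97 units, under it, in the wild-type-labelled library. Its difference is therefore at least 1.19-fold (log2 0.25), on a spot above feature number 50000, and at these signals the arrays give no firmer value.

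The interferon-inducible CXC ligands, which both bind CXCR3, differed in how well they could be read. Cxcl10, which encodes IP-10, read 853 units in the knockout-labelled library and 183 units in the wild-type-labelled library on the probe for its RefSeq transcript, a 4.56-fold difference (log2 2.19, rank 108). A different Cxcl10 probe, annotated to a cDNA clone, read 3.13 and 4.07 units, under the floor on both arrays, and did not enter the value. With no floor and no filter the mean over both probes was 0.89. The 2 Cxcl9 probes read 18.1 and 20.2 units in the knockout-labelled library, against 3.08 and 12.1 units in the wild-type-labelled library. All Cxcl9 signals of the wild-type label lay under the floor and those of the knockout label little over it, which leaves a bound of at least 1.32-fold (log2 0.40, mean over 2 probes with the floor in place of both wild-type-label signals). Signals this close to the floor leave the size of the Cxcl9 difference unmeasured.

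**Figure D2:**
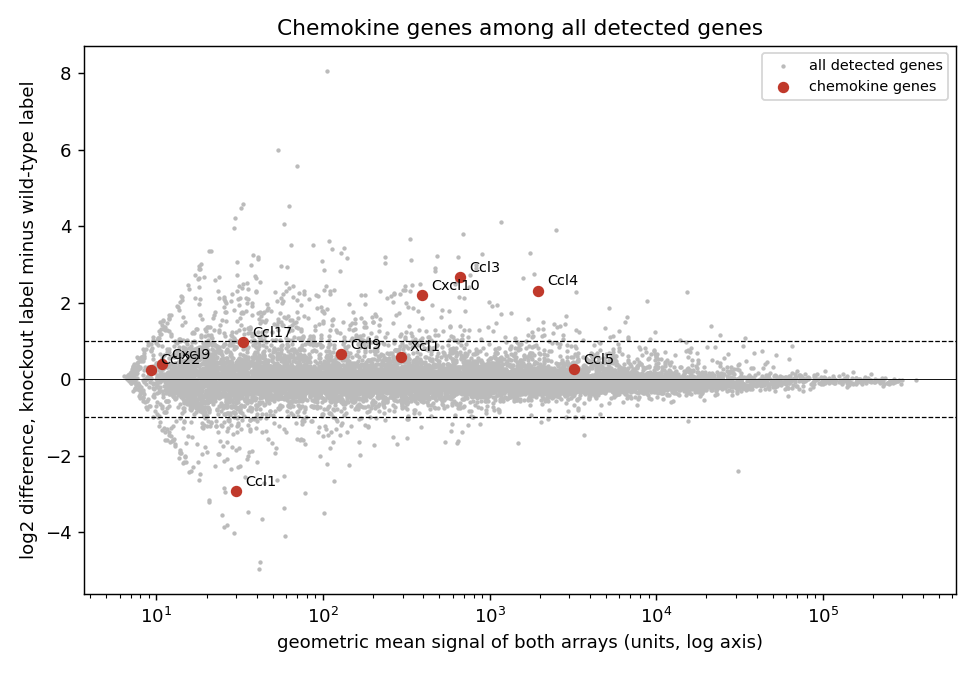
Log2 difference, knockout label minus wild-type label, against the geometric mean signal of both arrays (units, log axis) for 13411 detected genes (grey) and the 10 chemokine genes (red); dashed lines mark 2-fold. Ccl3 (2.67), Ccl4 (2.31) and Cxcl10 (2.19) lie above the bulk of genes of like signal, Ccl1 (-2.92) lies below it, and Ccl5 (0.27) lies close to it.

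The sequence before the transcription start is shown for the members past 2-fold that have an entry in the RefSeq promoter table of GRCm38.p6, which holds 8 of the 10 genes. Each line gives the 250 bases before the start on the gene's strand, with matches to any of 6 short motifs, searched on both strands, in capitals. The motifs were the κB consensus, the interferon-stimulated response element core (GAAA, any 2 bases, GAAA), the STAT site TTCNNNGAA, the AP-1 site TGANTCA, the core AAATCA of GFI1 sites and the T-box site AGGTGTGA.
Ccl3, minus strand, chr11:83649379-83649628: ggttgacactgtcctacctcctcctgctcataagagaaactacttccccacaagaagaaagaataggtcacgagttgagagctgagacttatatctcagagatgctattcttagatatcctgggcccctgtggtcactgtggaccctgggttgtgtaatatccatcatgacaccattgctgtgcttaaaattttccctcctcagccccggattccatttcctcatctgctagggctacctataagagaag
Cxcl10, minus strand, chr5:92348890-92349139: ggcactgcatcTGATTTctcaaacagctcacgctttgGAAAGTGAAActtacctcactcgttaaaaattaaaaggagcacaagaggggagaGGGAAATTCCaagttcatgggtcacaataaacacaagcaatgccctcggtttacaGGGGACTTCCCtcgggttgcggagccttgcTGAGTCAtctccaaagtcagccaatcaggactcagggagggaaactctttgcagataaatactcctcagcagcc
Ccl1, minus strand, chr11:82179813-82180062: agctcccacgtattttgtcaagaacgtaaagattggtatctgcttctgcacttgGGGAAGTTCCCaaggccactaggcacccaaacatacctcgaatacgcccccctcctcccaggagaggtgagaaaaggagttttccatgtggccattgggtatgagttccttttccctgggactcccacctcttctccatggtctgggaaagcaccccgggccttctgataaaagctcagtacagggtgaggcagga

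The Cxcl10 window held κB matches at -159 to -150 and, overlapping each other, at -104 to -95 and -103 to -94, counted back from -1 as the base before the start. It also held the interferon-stimulated response element core at -213 to -204, an AP-1 site at -74 to -68 and the GFI1 core, on the opposite strand, at -239 to -234. The Ccl1 window held a pair of overlapping κB matches at -196 to -187 and -195 to -186 and no other of the 6 motifs. The Ccl3 window held none of these letters. Among 32536 distinct windows of the table, 7.28% held the κB consensus, 2.98% the interferon-stimulated response element core, 7.04% the STAT site, 6.73% the AP-1 site, 12.3% the GFI1 core and 1.12% the T-box site. Of the 8 members with a window, 3 held the κB consensus (Ccl1, Ccl9 and Cxcl10), 2 the AP-1 site (Ccl9 and Cxcl10), 1 the STAT site (Ccl17) and 1 each the response element core and the GFI1 core (Cxcl10), and 0 the T-box site. A match is a run of letters, and κB matches stood before a gene that was lower (Ccl1) and before one that was higher (Cxcl10) in the knockout-labelled library.

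Most of the CC genes of the group lie in clusters, and the differences of neighbours were unequal. In the gene table Ccl5, Ccl9, Ccl6, Ccl3 and Ccl4 follow each other on chromosome 11 with no other protein-coding gene between them, and their differences were 0.27, 0.66, 1.56, 2.67 and 2.31 in that order. Ccl6, a further myeloid-type ligand and no member of the group, read 197 units in the knockout-labelled library and 65.4 units in the wild-type-labelled library. Ccl1 lies on the same chromosome, 25 protein-coding genes away from Ccl5, beside Ccl2, Ccl7, Ccl11, Ccl12 and Ccl8, which were under the floor on both arrays. On chromosome 8, Cx3cl1 lies between Ccl22 and Ccl17 and was at least 4.38-fold lower (10.3 units in the knockout-labelled library, under the floor, and 62.5 units in the wild-type-labelled library), while both of its neighbours were above 0. Cxcl9 and Cxcl10 are separated by 1 protein-coding gene on chromosome 5.

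**Figure D3:**
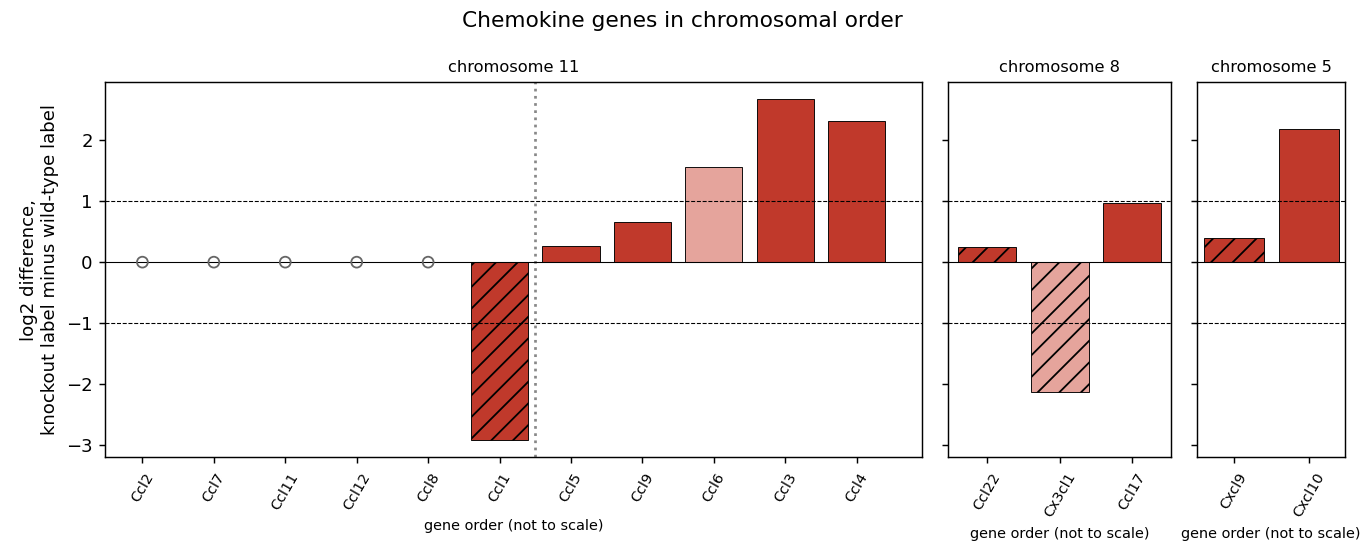
Log2 difference of chemokine genes, knockout label minus wild-type label, in the order of the gene table on chromosomes 11, 8 and 5 (not to scale); dark bars are the genes described here, pale bars Ccl6 and Cx3cl1, hatched bars are bounds set by the floor, and open circles are genes under the floor on both arrays. The dotted line stands for 25 protein-coding genes between Ccl1 (-2.92) and Ccl5 (0.27).

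The remaining chemokine ligands were mostly under the floor. Of 27 such genes with a named probe, 19 lay under the floor on both arrays, with signals of 2.93 to 10.9 units in the knockout-labelled library and 2.65 to 10.3 units in the wild-type-labelled library. Of the detected 8, Ccl6 (1.56) and Pf4 (1.40), which encodes platelet factor 4, passed 2-fold upward, against 3.62% of all detected genes, and Cx3cl1 was the only gene at least 2-fold lower, against 1.52%. Ccl6 and Pf4 (147 units in the knockout-labelled library, 54.6 units in the wild-type-labelled library) are each read by 1 dim spot above feature number 50000. The platelet markers Itga2b, Gp9 and Gp6 lay under the floor on both arrays, and Gp1bb read 18.7 and 14.4 units, knockout label first. Ccl19 stood at 0.88 ± 1.44 and Ccl25 at 0.45 ± 0.87 (SD over 2 probes each), so their probes disagreed. Ccl27a (0.08 ± 0.09, SD over 3 probes), Cxcl16 (-0.14) and the probes annotated as Cxcl11 (-0.13 ± 0.02, SD over 2 probes) differed little. The Cxcl11-annotated probes lay far apart in level, at 142000 and 3220 units in the knockout-labelled library and 150000 and 3480 units in the wild-type-labelled library. Which transcript they read was not tested.

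The receptors for these ligands differed less than 2-fold on every probe that could be read. Cxcr3, the receptor of CXCL9 and CXCL10 and a marker of T helper 1 cells, read 805 units in the knockout-labelled library and 448 units in the wild-type-labelled library (log2 0.81, 1 spot above feature number 50000). Ccr8, the receptor of CCL1, stood at 0.76 ± 0.14 (SD over 2 probes), with geometric mean signals of 359 units in the knockout-labelled library and 208 units in the wild-type-labelled library. Ccl1 and Ccr8 thus stood on opposite sides of 0. Ccr4, the receptor of CCL17 and CCL22, read 1280 units in the knockout-labelled library and 1400 units in the wild-type-labelled library (log2 -0.16). Ccr3 read 23.4 and 16.4 units (log2 0.48) in the same order, on 1 dim spot above feature number 50000. Ccr1, Xcr1 and the scavenging receptors Ackr1 and Ackr2 were under the floor on both arrays. Of 8 receptor genes with a named probe, 4 were detected and 0 differed by 2-fold in either direction, against 5.14% of all detected genes. The median of the detected receptors was 0.62, like the 0.62 of the 10 chemokine genes.

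**Figure D4:**
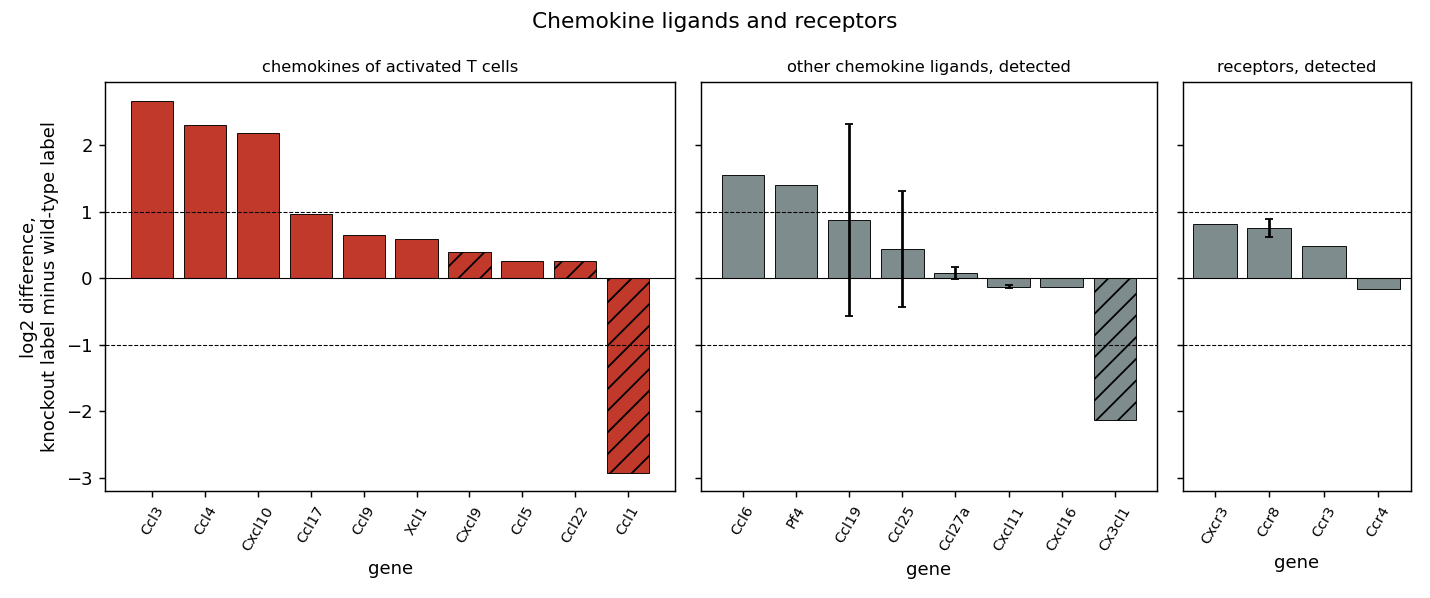
Log2 difference, knockout label minus wild-type label, of the 10 chemokine genes (red), the 8 other chemokine ligands detected and the 4 receptors detected (grey); error bars are SDs over probes where a measured gene has several, hatched bars are bounds, and dashed lines mark 2-fold. No receptor bar passes 2-fold, while 4 of the 10 red bars do.

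Transcription factors known to act on chemokine genes, and cytokines that activated T cells make beside chemokines, were described from lists. Of 21 detected factors 7 were at least 2-fold higher and 0 lower, with a median of 0.37, beside 3.62% higher and 1.52% lower among all detected genes. Tbx21, which encodes T-bet, a factor known to act on Ccl3 and Cxcr3, read 2360 units in the knockout-labelled library and 289 units in the wild-type-labelled library (log2 3.00, 1 spot above feature number 50000). Batf3 stood at 1.78, Eomes at 1.47 ± 0.08 (SD over 2 probes), Irf8 at 1.24 and Irf4 at 1.04. The AP-1 genes Fos and Jun stood at 1.86 and 1.05. The NF-κB subunit genes Rela, Nfkb1 and Rel stood at 0.04, -0.10 ± 0.05 (SD over 2 probes) and 0.15, so the transcripts of these κB-binding proteins differed little. The activity of the proteins was not measured.

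Of 12 detected cytokine genes 8 were at least 2-fold higher and 0 lower, with a median of 1.48, against the same shares of 3.62% and 1.52% of all detected genes. Ifng read 4944 units in the knockout-labelled library and 279 units in the wild-type-labelled library (log2 4.11). Il2 (2.14) and Il3 (2.20), each read on 1 spot above feature number 50000, and Lta (2.82-fold higher), Il13 (1.46) and Csf2 (1.02) also passed 2-fold. Il9 was at least 8.81-fold and Il17a at least 2.82-fold higher. Tnf stood at 0.66 and Tnfsf11, which encodes RANKL, at -0.26. Of 12 detected genes that IFN-γ induces, 6 were at least 2-fold higher and 0 lower, with a median of 0.94, where 3.62% and 1.52% of all detected genes were. Irgm1 (1.73 ± 0.04, SD over 2 probes), Cd274 (1.39), Tap1 (1.16), Igtp (1.16), Socs1 (1.11) and Psmb9 (1.02, 1 spot above feature number 50000) passed 2-fold. Each of these differences was smaller than that of Cxcl10, a comparison that covers the genes of this list only. Among all detected genes Cxcl10 had rank 108, so genes outside the list stood above it.

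Markers of other cells that make these chemokines differed between the arrays as well. Among all detected genes, 3.62% were higher by 2-fold or more and 1.52% lower, the shares to set beside each marker count here. All 9 CD8 T and NK cell markers were above 0, and 4 of them at least 2-fold higher, with summed signals of 1075 units in the knockout-labelled library and 435 units in the wild-type-labelled library (the floor in place of signals under it). Klrc1 stood at 2.31 ± 0.56 (SD over 2 probes, with the floor in place of a wild-type-label signal), Klrd1 at 1.75 and Cd8b1 at 0.91. Cd8a, Ncr1, Klrb1c and Klrk1 were under the floor in the wild-type-labelled library. Of 12 macrophage and dendritic cell markers 8 were detected and 2 passed 2-fold upward, with summed signals of 1611 units in the knockout-labelled library and 1231 units in the wild-type-labelled library. The median of this list was 0.08. Siglech made up 875 and 856 of these units, knockout label first, so both sums lean on a gene whose probes disagreed. A bright Siglech probe read 50400 and 51600 units, a different one 15.2 and 5.28 units. Another, at 7.73 and 3.4 units, was under the floor on both arrays. Mpeg1 was at least 23.1-fold higher on a probe that read 335 units in the knockout-labelled library and 11.7 units in the wild-type-labelled library. A different Mpeg1 probe read 7.33 and 3.23 units, under the floor on both arrays, and did not enter the value. Zbtb46 stood at 1.21 ± 0.39 (SD over 2 probes), Csf1r at 0.01 ± 0.19 and Itgam at -0.07 ± 0.29 (SD over 3 probes each). Lyz2, Cd14, Itgax and Clec9a were under the floor on both arrays. Of 8 B cell markers 7 were detected and 3 passed 2-fold upward, with summed signals of 1259 units in the knockout-labelled library and 555 units in the wild-type-labelled library. Blnk was 12.3-fold and Ms4a1 11.4-fold higher, Cd79b stood at -0.17, and Pax5 was under the floor on both arrays. The part of any of these cells in the chemokine differences was not tested.

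The T cell identity of the cultures was legible on both arrays. All 7 CD4 T cell markers with a named probe were detected, 0 were 2-fold apart, against 5.14% of all detected genes, and their median was -0.23. Cd3e read 15900 units in the knockout-labelled library and 20900 units in the wild-type-labelled library, and Cd4 stood at -0.14 ± 0.03 (SD over 2 probes). Gapdh (0.04 ± 0.07, SD over 8 probes), Actb (-0.05) and Hprt (-0.01) differed far less than Ccl3, Ccl4, Cxcl10 or Ccl1. Actb ranged from -0.06 to 0.01 and Hprt from -0.01 to 0.04 over the scalings tried, so neither has a settled direction.

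**Figure D5:**
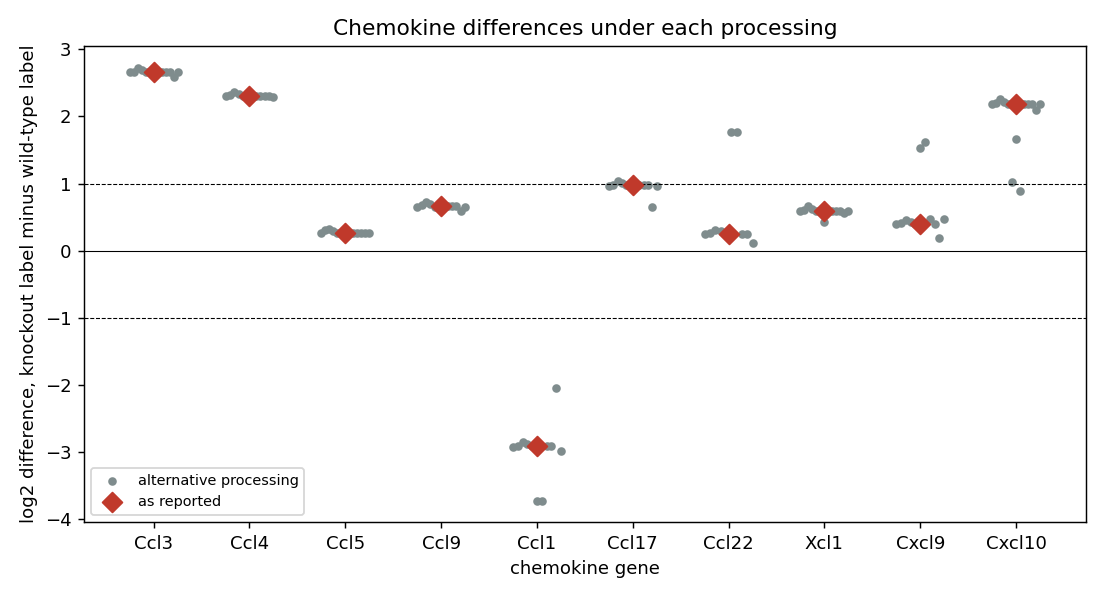
Log2 difference of each chemokine gene, knockout label minus wild-type label, as reported (red diamonds) and under each alternative processing that could give a value (grey points); dashed lines mark 2-fold. Ccl3 stays between 2.60 and 2.73 and Ccl4 between 2.29 and 2.37, whereas Cxcl10 lies between 0.89 and 2.25, Cxcl9 between 0.19 and 1.61 and Ccl22 between 0.11 and 1.77.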

How the data were processed

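The authors deposited, per array, a linear intensity for each spot in a column headed as raw, with probe name and feature number, and a second table of intensity values that equal the first times a constant (2.26 for the knockout label, 2.27 for the wild-type label), used as an alternative. Agilent Feature Extraction 11.5.1.1 was used, per the submitters' processing notes; which background correction it applied is not given there. Labelling used 100 ng of total RNA, per the labels' protocols. Genes were named from the platform annotation (31465 of 59305 spots, none with several symbols), updated through RefSeq accessions for 29036 spots, through symbols for 2075 and synonyms for 349, with 5 kept. The files name no genome build; promoter coordinates are those of RefSeq's GRCm38.p6.

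Spots of a probe were averaged as log2 signals, and arrays were scaled to the 75th percentile. Probes above the array's median on at least 1 array were kept, the floor replaced any signal under it, and kept probes were averaged per gene. Signals quoted are measured ones, as geometric means over kept probes. A list's summed signal is over its detected genes, with the floor in place of signals under it. With 1 array per label, genes were counted by size at 2-fold. The number of arrays limits the precision. The 10 genes and all lists were chosen with earlier results of these data known. Named were all members, Gfi1, detected ligands and receptors, factors, cytokines and induced genes past 2-fold with Ifng, Tbx21 and Klf13, leading markers, Actb, Gapdh and Hprt. Xist, Eif2s3y, Tnf, Tnfsf11, Rela, Nfkb1, Rel, genes named as under the floor, Csf1r, Itgam, Gp1bb, Cd3e and Cd4 were added after their values were seen. Other genes of the rule are not reported here. The steps were tested on simulated data. Alternatives were other scalings, floors, probe summaries, an offset of 16 units and other fold limits; the fits without late-numbered spots (feature number above 50000) or without Ccl1 were added later. Tools were Python 3.11.15, matplotlib 3.10.9, statsmodels 0.14.6, pandas 2.3.3 and numpy 2.4.6.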

Additional observations from a re-analysis of the deposited data

How the results depend on the processing

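Ccl3, Ccl4, Ccl5, Ccl9 and Xcl1 kept their direction and their side of 2-fold under every alternative that gave them a value, and Ccl1 did so at -2.05 to -3.73. Ccl17 passed 2-fold with cyclic loess (1.04) and without scaling (1.00). With a floor at the 25th percentile, Ccl22 (1.77) and Cxcl9 (1.54) passed 2-fold, Cxcl10 stood at 1.02, 5 members were higher (5.51% of all genes in this setting), and the members' median was 1.00. With no floor and no filter Ccl22 stood at 1.77, Cxcl9 at 1.61, Cxcl10 at 0.89 (its silent probe enters) and the members' median at 0.93. In this setting 2 other ligands were lower, against 3.08% of all genes. With a floor at the 75th percentile no member (0) was lower and 0 other ligands were higher or lower, where 1.56% of all genes were higher and 0.23% lower. The members' median of 1.66 in this setting is over Ccl3, Ccl4, Ccl5, Xcl1 and Cxcl10 only. With probes detected on both arrays 0 members and 0 other ligands were lower, where 1.00% of all genes were. The median of 0.97 there is over the 7 members measured on both arrays. Both settings remove Ccl1, Ccl22, Cxcl9 and Cx3cl1, and the 75th-percentile floor also removes Ccl9 and Ccl17. At 1.5-fold 6 members and 2 receptors were higher, against 7.67% of all genes. At 3-fold and 4-fold 0 other ligands were higher, against 1.6% and 1.02% of all genes. Without spots above feature number 50000, 0 other ligands were higher, against 3.1% of all genes in this setting, and Ccl4 and Ccl22 had no value. The median without Ccl1 was 0.66. Over the scalings the median of all genes lay between -0.06 and 0.01. The cause of other shifts was not tested. No paired analysis was possible because each label has 1 array, and no replicate could be left out. Dim probes (Ccl17, Ccl22, Cxcl9, Ccl1) limit what can be read.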
